A study of Mus musculus with 2 samples.

Results

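The monocyte chemokine axis comprises *Ccl2*, *Ccl7*, *Ccl8* and *Ccl12*, 4 secreted ligands, and *Ccr2*, the receptor that carries classical monocytes towards them. These 5 of the 32589 genes counted were chosen on values of these same 2 libraries, namely their unique molecular identifiers (UMIs, tags that count captured mRNA molecules) per library and cell class, so their differences are given as a description and without a test.

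scRNA-Seq was performed on livers bearing cholangiocarcinoma (CCA), induced by hydrodynamic tail vein injection of Notch intracellular domain and myristoylated AKT. Both libraries were of genotype shYT, in which doxycycline-inducible shRNAs against *Yap1* and *Wwtr1* were switched on in every cell type from day 25, so that depletion reached immune and stromal cells as well as tumor cells. The shYT_PBS library received PBS and the shYT_antiPD1 library received the anti–PD-1 antibody clone RMP1-14 on days 26, 29 and 32, and livers were taken at day 33. The study gives several animals per group for this experiment and used mice of both sexes, but the labels give no sex, age, strain, number of animals or shRNA line for either library and do not tie cells to animals. Each condition is 1 library, so every difference below is between 2 libraries, and a difference between treatments and one between animals cannot be told apart. Intervals are 95% counting intervals only.

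Classical monocytes leave the bone marrow and enter inflamed or tumor-bearing tissue through CCR2, a G protein–coupled receptor, and most of them then become macrophages. CCL2 is the main CCR2 ligand in mice, CCL7 and CCL12 also act on CCR2, and mouse CCL8 signals mainly through CCR8. The ligands are made by macrophages, stromal cells and monocytes themselves and are induced by inflammatory cytokines through NF-κB, while CCR2 is lost as a monocyte matures. In the liver, resident Kupffer cells and recruited macrophages are held to be sources of CCL2, and tumors commonly draw macrophage precursors by this route.

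The ligand genes lie side by side on mouse chromosome 11 (GRCm38, mm10; GENCODE release M21), all on the plus strand and each with 3 exons. *Ccl2* (ENSMUSG00000035385) spans 82035571 to 82037453, *Ccl7* (ENSMUSG00000035373) 82045712 to 82047525, *Ccl12* (ENSMUSG00000035352) 82101845 to 82103400 and *Ccl8* (ENSMUSG00000009185) 82115185 to 82116799. They occupy 81.2 kb together with the eosinophil attractant *Ccl11*. *Ccr2* (ENSMUSG00000049103) is on chromosome 9 from 124101950 to 124113557. The ligands' reference transcripts were 65.2% to 68.3% identical over their aligned bases, and the longest identical run of any pair was 23 bases, between *Ccl2* and *Ccl7*. *Gm17268*, annotated on the opposite strand across *Ccl2*, held 19 and 18 UMIs in the PBS and anti–PD-1 libraries, against 5178 and 10752 for *Ccl2*.

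Promoter windows, from 250 bases before to 50 bases after the start, were held for 3 of the 5 genes in the RefSeq table used here (GRCm38.p6, plus strand): *Ccl12* at chr11:82101595-82101894, *Ccl8* at chr11:82114935-82115234 and *Ccr2* at chr9:124101933-124102232. All 3 are shown, and none was held for *Ccl2* or *Ccl7*. *Ccl12* and *Ccl8* had the most similar distribution over cell classes of any pair of members, whereas *Ccr2* differed in the opposite direction. Capitals mark TATAAA, the core of a TATA box, in the *Ccl12* and *Ccl8* windows and a match to GAAANNGAA, part of an interferon response element, on the other strand of the *Ccr2* window.
Ccl12: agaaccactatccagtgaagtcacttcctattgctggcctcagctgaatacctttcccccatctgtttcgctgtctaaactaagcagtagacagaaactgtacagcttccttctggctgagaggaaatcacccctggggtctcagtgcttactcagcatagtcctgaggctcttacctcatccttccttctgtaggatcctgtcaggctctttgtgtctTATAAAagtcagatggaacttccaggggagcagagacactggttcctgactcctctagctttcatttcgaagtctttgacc
Ccl8: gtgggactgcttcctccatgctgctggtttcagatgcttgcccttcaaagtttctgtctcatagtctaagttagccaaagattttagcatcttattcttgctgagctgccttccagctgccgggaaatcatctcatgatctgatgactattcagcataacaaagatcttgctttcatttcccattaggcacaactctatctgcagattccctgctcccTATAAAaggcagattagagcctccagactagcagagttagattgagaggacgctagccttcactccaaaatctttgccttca
Ccr2: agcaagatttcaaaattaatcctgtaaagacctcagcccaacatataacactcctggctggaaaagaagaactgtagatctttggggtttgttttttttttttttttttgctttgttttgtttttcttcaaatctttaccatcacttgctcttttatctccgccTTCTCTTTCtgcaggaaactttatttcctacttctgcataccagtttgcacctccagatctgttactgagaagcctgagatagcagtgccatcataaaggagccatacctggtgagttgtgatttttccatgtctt
The *Ccl12* and *Ccl8* windows were 63.4% identical over 279 aligned bases and carried TATAAA at −31 and −32 from the start. The *Ccr2* window held no TATAAA, and its GAAANNGAA match, on the other strand, began at −86. RefSeq places the *Ccr2* start 233 bases inside the gene as annotated by GENCODE, so that this match lies upstream of the one start and downstream of the other, whereas the starts of *Ccl12* and *Ccl8* were the same in both. Searched on both strands, TATAAA was found in 13.6% and GAAANNGAA in 8.56% of all 32851 windows. The letters TGANTCA (AP-1), TTCNNNGAA (STAT) and TTGCNNAA (C/EBP) and the NF-κB consensus were found on neither strand of these 3 windows, and in 7.81%, 8.30%, 10.8% and 8.46% of all windows respectively.

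After filtering, 15531 cells of the PBS library and 16360 of the anti–PD-1 library were kept, with medians of 3159 and 2990 UMIs, and 219 barcodes occurred in both libraries. Cells were assigned by marker genes to 16 classes with at least 50 cells in each library, and each class name means cells resembling that type. The libraries differed in composition and in sex. Macrophages numbered 3742 of the PBS and 2119 of the anti–PD-1 cells, whereas Kupffer cells made up 4.27% and 9.30% and neutrophils 8.10% and 19.0%. In the PBS library 6686 cells held *Xist* and no Y-linked UMI and 1481 held Y-linked and no *Xist* UMI, whereas these numbers were 4 and 7861 in the anti–PD-1 library. The PBS library thus held cells of both sexes and the anti–PD-1 library almost only male cells, so the main ratios are also given for male-type cells, those holding Y-linked UMIs but none of *Xist*.

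In macrophages, all 4 ligands were higher in the anti–PD-1 library and *Ccr2* was lower. *Ccl2* was at 110.2 CPM (UMIs of the gene for each 1000000 UMIs of the class) in PBS macrophages and 355 CPM in anti–PD-1 macrophages, a fold of 3.22 (95% counting interval 3.09–3.36). *Ccl7* was at 36.3 and 224 CPM, a fold of 6.17 (5.78–6.61). *Ccl12* was the most abundant of the ligands there, at 139 and 779 CPM and a fold of 5.61 (5.42–5.81). *Ccl8* was at 58.5 and 249.7 CPM, a fold of 4.27 (4.04–4.51). These values rested on 1140 to 4360 UMIs in 3742 PBS macrophages and 3673 to 12774 UMIs in 2119 anti–PD-1 macrophages. On the log2(CPM + 5) scale used for all classes, the differences were 1.64 for *Ccl2*, 2.47 for *Ccl7*, 2.00 for *Ccl8* and 2.45 for *Ccl12*, beside a median of −0.10 over the 14646 genes measured in macrophages. All 4 ligands passed a log2 ratio of 1, and 2.34% of all genes measured in macrophages did so. In male-type macrophages the log2 ratios were 2.26 for *Ccl2*, 2.53 for *Ccl7*, 0.89 for *Ccl8* and 3.44 for *Ccl12*, so that *Ccl8* did not pass there.

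**Figure D1:**
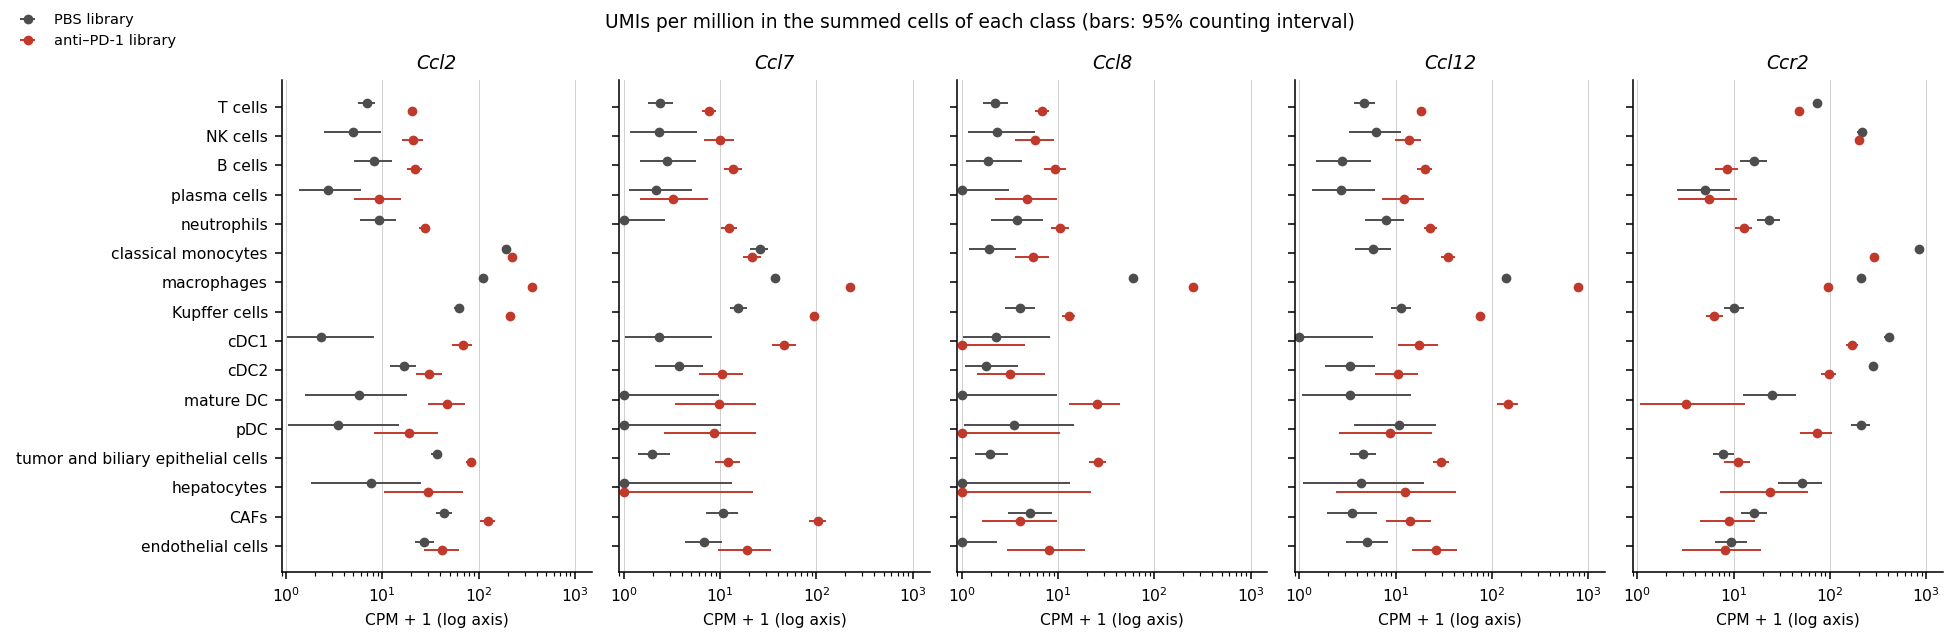
Level of each gene in the summed cells of 16 classes, as CPM + 1 on a log axis, with the PBS library in gray and the anti–PD-1 library in red and bars for the 95% counting interval. *Ccl8* and *Ccl12* peak in macrophages in both libraries, at 58.5 and 139 CPM with PBS and 249.7 and 779 CPM with anti–PD-1, and *Ccr2* peaks in classical monocytes, at 839 and 289 CPM.

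The ligands differed in which cells carried them. *Ccl8* and *Ccl12* were found mostly in macrophages, which held 96.4% and 95.3% of their UMIs in the PBS library and 88.5% and 86.8% in the anti–PD-1 library. *Ccl2* had more sources. Its macrophage share was 66.9% with PBS and 54.1% with anti–PD-1, classical monocytes held 12.2% and 7.76%, and Kupffer cells held 6.97% and 25.0%. For *Ccl7* macrophages held 80.3% and 66.6% of UMIs, Kupffer cells 5.99% and 21.8%, and classical monocytes 5.78% and 1.41%. These shares depend on how many cells of each class were captured as well as on the level per cell.

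**Figure D2:**
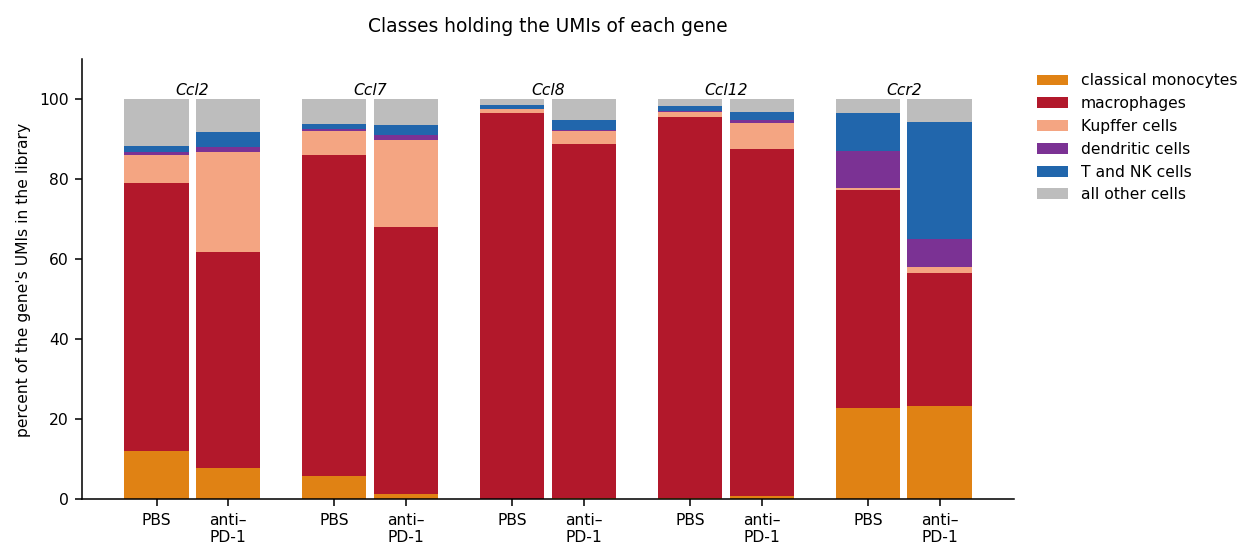
Share of each gene's UMIs held by each group of cells, in percent, as stacked bars for the PBS and anti–PD-1 libraries. The Kupffer cell segment of *Ccl2* widens from 6.97% to 25.0%, *Ccl8* and *Ccl12* stay at 86.8% or more in macrophages, and T and NK cells take a larger share of *Ccr2* UMIs with anti–PD-1.

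By level per class, *Ccl2* was led by classical monocytes in the PBS library (191 CPM, interval 176–206), ahead of macrophages (110.2 CPM) and Kupffer cells (61.3 CPM). The intervals of these neighbours did not overlap, but they leave out the spread between cells. The 5% of PBS monocytes with the most *Ccl2* UMIs held 81.5% of them. In male-type PBS cells macrophages came first at 73.2 CPM (interval 64.7–82.6), followed by Kupffer cells at 52.4 CPM (39.4–68.4). Classical monocytes were at 38.5 CPM there (19.2–68.95), on 11 UMIs, and all of these intervals overlapped. In the anti–PD-1 library macrophages led (355 CPM), and classical monocytes (219.6 CPM) and Kupffer cells (209 CPM) could not be separated by their intervals. *Ccl7* was led by macrophages in both libraries, followed with anti–PD-1 by cancer-associated fibroblasts (CAFs; 102 CPM) and Kupffer cells (93.6 CPM), whose intervals overlapped. *Ccl8* and *Ccl12* were led by macrophages in both, and the measured *Ccl8* level of every other class was at most 4.18 CPM with PBS, although in hepatocytes and mature DC 0 UMIs allow up to 10.01 and 7.15 CPM. The mix of the 4 ligands also differed among myeloid classes. *Ccl12* made up 40.4% of all UMIs of the 4 ligands in PBS macrophages and 48.5% in anti–PD-1 macrophages. In Kupffer cells *Ccl2* was the main ligand, at 68.8% and 54.0%, and in classical monocytes it made up 86.2% and 78.8%.

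Kupffer cells, the resident macrophages of the liver sinusoids, showed the same direction as the other macrophages for every ligand. *Ccl2* was at 61.3 and 209 CPM, *Ccl7* at 14.4 and 93.6 CPM and *Ccl12* at 10.4 and 73.1 CPM in the PBS and anti–PD-1 libraries. The log2 ratios were 1.69 (interval 1.54–1.84), 2.34 (2.10–2.59) and 2.35 (2.08–2.61). *Ccl8* remained low in Kupffer cells at 3.06 and 11.9 CPM, with a log2 ratio of 1.07 (0.74–1.35). With anti–PD-1 its interval in Kupffer cells (10.1–13.95 CPM) overlapped that in neutrophils (7.4–11.9 CPM). All 4 passed a log2 ratio of 1, as did 1.50% of the genes measured in Kupffer cells. In male-type Kupffer cells *Ccl2* and *Ccl7* had log2 ratios of 1.90 and 2.39. *Ccl12* rested on few PBS cells, since 32 of its 61 PBS UMIs lay in 1 cell. Its log2 ratio was 3.08 (2.35–3.67) in male-type cells, with 5 PBS UMIs. It was 2.80 without the 1% of cells with the most *Ccl12* UMIs. *Ccl8* did not pass in male-type Kupffer cells, at 5.82 and 9.89 CPM with a log2 ratio of 0.46 (−0.28 to 1.09). Its ratio was 0.93 without the 1% of Kupffer cells with the most *Ccl8* UMIs.

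In classical monocytes the values of *Ccl2* and *Ccl7* turned on which cells were summed. Over the whole class *Ccl2* was at 191 CPM in 500 PBS cells and 219.6 CPM in 591 anti–PD-1 cells, a log2 ratio of 0.20 (0.05–0.35). *Ccl7* was at 24.8 and 20.5 CPM, with an interval of the log2 ratio that included 0 (−0.60 to 0.16). *Ccl12* passed a log2 ratio of 1, at 4.83 and 34.2 CPM (2.00, interval 1.55–2.39), and *Ccl8* was near its limit of counting at 3 and 17 UMIs. Thus 1 of the 4 ligands passed a log2 ratio of 1 here, against 3.85% of all genes measured in this class. *Ccl2* was concentrated in few monocytes, since 19.0% of PBS and 30.5% of anti–PD-1 monocytes held any *Ccl2* UMI and the 5% of cells with the most held 81.5% and 63.7% of them. Without cells carrying UMIs of the precursor genes *Mpo*, *Elane*, *Prtn3* or *Ctsg*, the first 3 of which were among the leading genes of this class, the *Ccl2* log2 ratio was −0.65 (−0.85 to −0.45). In male-type monocytes *Ccl2* was at 38.5 CPM in 41 PBS cells and 216.7 CPM in 329 anti–PD-1 cells, a log2 ratio of 2.35 (1.57–3.20), while female-type PBS monocytes held 230.2 CPM. *Ccl7* was at 0 UMIs in the male-type PBS monocytes, which allows up to 10.5 CPM, and at 15.1 CPM with anti–PD-1. Without the 1% of cells with the most UMIs of the gene in question, the log2 ratios were 0.62 for *Ccl2* and 0.61 for *Ccl7*. The direction of neither gene was stable in this class.

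**Figure D3:**
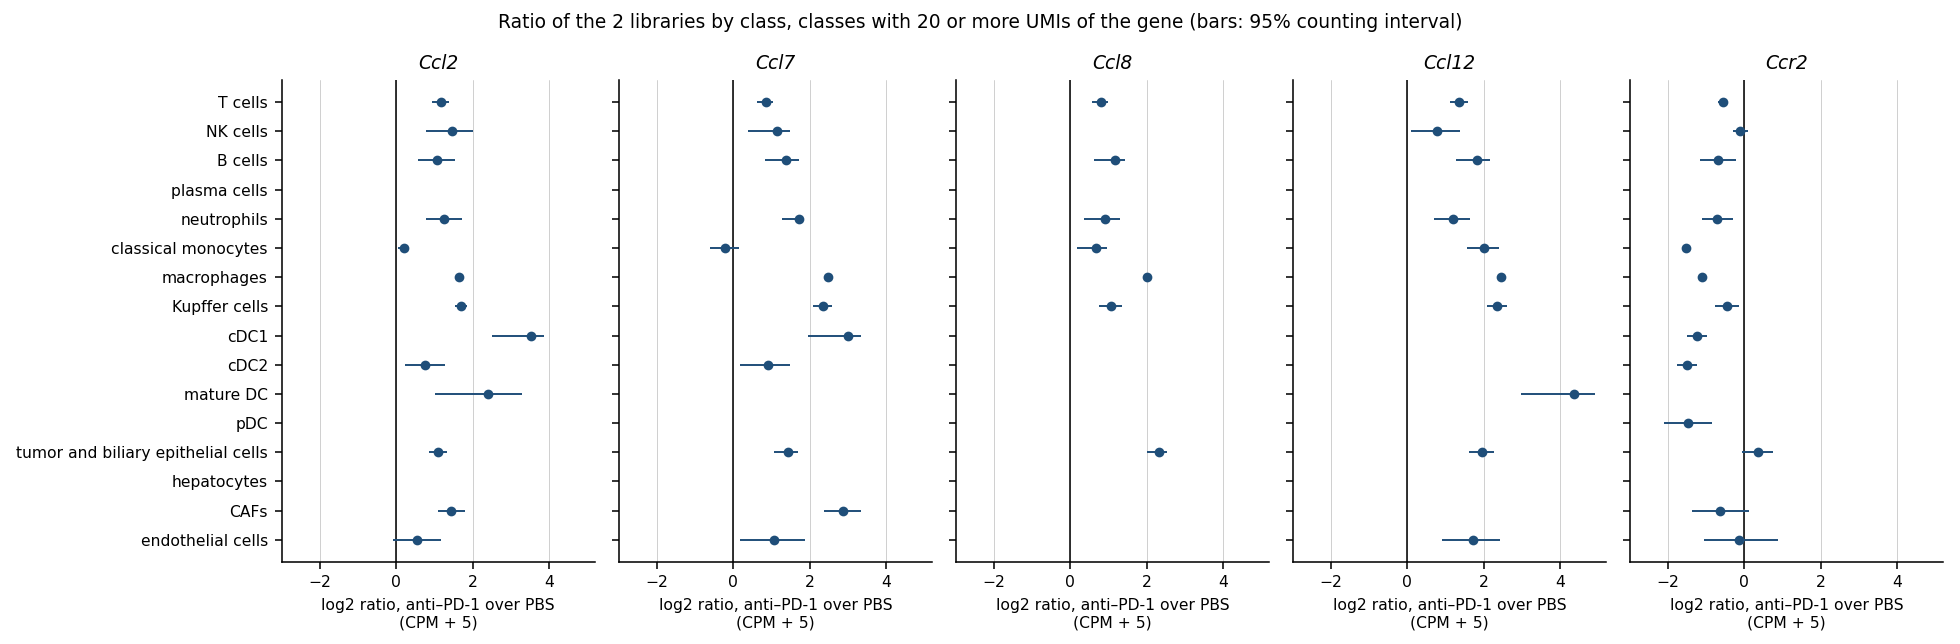
Log2 ratio of the anti–PD-1 over the PBS library for each gene and class, computed on CPM + 5, for classes with 20 or more UMIs of the gene, with 95% counting intervals and a line at 0. The ligand ratios of macrophages and Kupffer cells lie between 1.07 and 2.47, the *Ccl2* and *Ccl7* ratios of classical monocytes lie at 0.20 and −0.22, and the *Ccr2* ratios of monocytes and dendritic cells lie below −1.

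Outside the monocyte lineage, CAFs, the collagen-producing cells of the stroma, carried *Ccl2* at 42.6 and 124 CPM and *Ccl7* at 9.60 and 102 CPM in the PBS and anti–PD-1 libraries. The log2 ratios were 1.44 (1.08–1.80) and 2.88 (2.38–3.35). Both passed a log2 ratio of 1 in CAFs, against 3.27% of the genes measured there, and *Ccl8* and *Ccl12* had too few UMIs in this class to count as measured. A lone fibroblast held 68 of the 102 *Ccl2* UMIs in the PBS library. The *Ccl2* log2 ratio was 2.90 without the 1% of cells with the most *Ccl2* UMIs. It was 2.72 without cells that also carried markers of another lineage. In male-type CAFs *Ccl2* was at 0 UMIs in 34 PBS cells, which allows up to 11.5 CPM, and at 122.5 CPM in 88 anti–PD-1 cells. In tumor and biliary epithelial cells *Ccl2* was at 35.6 and 81.5 CPM, *Ccl7* at 0.974 and 11.2 CPM, *Ccl8* at 0.974 and 24.9 CPM and *Ccl12* at 3.62 and 28.6 CPM. All 4 passed a log2 ratio of 1 where 2.89% of genes did. However, 60 of the 87 *Ccl8* UMIs and 41 of the 100 *Ccl12* UMIs of the anti–PD-1 library came from 1 cell each. With anti–PD-1, the *Ccl7* interval of this class (7.94–15.3 CPM) overlapped those of B cells (9.91–16.1 CPM) and neutrophils (9.16–14.1 CPM). Whether the ligand UMIs arose in the epithelial cells was not tested. Counts were low in rare dendritic cells. The cDC1 class held 1 and 70 *Ccl2* UMIs and 1 and 47 *Ccl7* UMIs, and 20 of the 70 and 37 of the 47 lay in 1 cell each. Mature DC held 1 and 66 *Ccl12* UMIs, of which 57 lay in 1 cell.

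B cells and neutrophils, which are not known as main sources of these ligands, also held their UMIs, and more of them in the anti–PD-1 library. In B cells *Ccl2* was at 7.17 and 20.7 CPM and *Ccl12* at 1.79 and 18.9 CPM in the PBS and anti–PD-1 libraries. In neutrophils *Ccl2* was at 8.22 and 26.6 CPM. *Ccl7* was there at 0 UMIs with PBS, which allows up to 1.37 CPM, and at 11.4 CPM with anti–PD-1. T cells held *Ccl2* at 5.895 and 19.4 CPM and NK cells at 3.98 and 19.8 CPM. In B cells all 4 ligands passed a log2 ratio of 1, with values from 1.08 to 1.81, against 1.66% of the genes measured there. In neutrophils 3 of them, *Ccl2*, *Ccl7* and *Ccl12*, passed a log2 ratio of 1, against 2.47% of genes. Positive B cells of the anti–PD-1 library held on average 1.16 *Ccl2* and 1.32 *Ccl12* UMIs. Markers of another lineage occurred in 35.2% and 47.9% of B cells and 36.25% and 48.3% of neutrophils with PBS and anti–PD-1. UMIs of *Mpo*, *Elane*, *Prtn3* or *Ctsg* were found in 0.771% and 4.26% of B cells. Whether the ligand UMIs arose in these cells was not tested. Of the UMIs of the 4 ligands in the anti–PD-1 library, *Ccl2* made up 34.1% (interval 29.1–39.5) in B cells and 38.3% (34.2–42.6) in neutrophils, against 30.2% over all cells. *Ccl12* made up 31.1% (26.2–36.4) and 31.6% (27.7–35.7) of them, below the 41.3% over all cells. In the PBS library these classes held 26 and 39 ligand UMIs, of which *Ccl2* made up 61.5% and 46.2%, against 39.6% over all cells. The macrophage levels of *Ccl2* exceeded those of B cells in both libraries, at 110.2 against 7.17 CPM and at 355 against 20.7 CPM. Over the 16 classes, the counting interval of the log2 ratio lay above 0 in 13 classes for *Ccl2*, 11 for *Ccl7*, 10 for *Ccl8* and 14 for *Ccl12*, and below 0 in 0 classes for any of them. These counts include classes with too few UMIs to count as measured, such as plasma cells with 0 and 5 *Ccl8* UMIs and cDC1 with 0 and 17 *Ccl12* UMIs. The share of all genes with such an interval was not computed, so the counts do not set the ligands apart from other genes.

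At the level of cells, each cell was thinned to 1000 UMIs so that depth was equal, which left out 1075 PBS and 1347 anti–PD-1 cells. *Ccl2* was then detected in 6.88% of PBS and 19.2% of anti–PD-1 macrophages, beside 0.413% and 2.21% of B cells. For *Ccl12* these shares were 6.29% and 21.8% of macrophages and 0.103% and 1.93% of B cells. For *Ccl7* they were 2.12% and 9.85% of macrophages, and for *Ccl8* 2.62% and 5.97%. With anti–PD-1, *Ccl8* was found in the smallest share of macrophages of the 4 ligands. Without thinning, detection in macrophages was 24.1% and 43.5% for *Ccl2* and 17.0% and 39.1% for *Ccl12*, at median depths of 7854 and 6854 UMIs for macrophages and 1768 and 2494 for B cells.

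More cells with a ligand and more UMIs per such cell both contributed to the sums. Positive macrophages held on average 3.85 and 6.32 *Ccl2* UMIs, 4.33 and 7.73 *Ccl7* UMIs, 7.04 and 13.6 *Ccl8* UMIs and 6.84 and 15.4 *Ccl12* UMIs in the PBS and anti–PD-1 libraries. Expression was uneven. The 5% of macrophages with the most *Ccl8* UMIs held 96.0% and 91.6% of them, and for *Ccl12* they held 83.5% and 65.1%. Cells with 10 or more *Ccl12* UMIs made up 3.02% of PBS and 12.9% of anti–PD-1 macrophages.

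**Figure D4:**
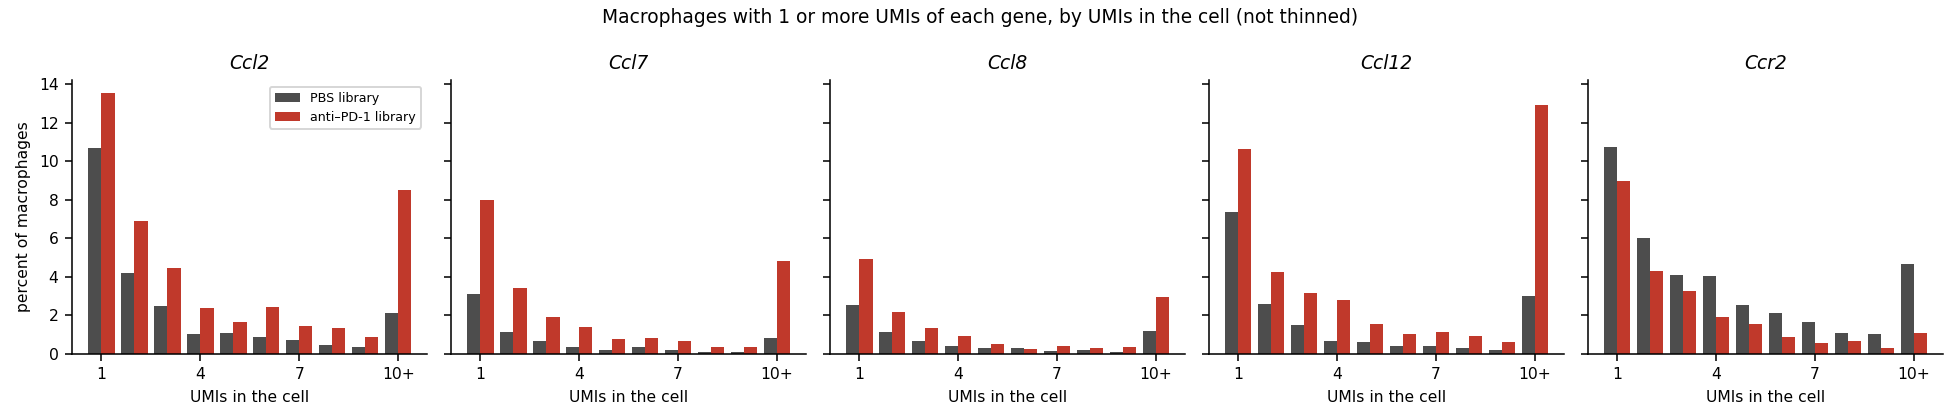
Percent of macrophages with each number of UMIs of the 5 genes, without thinning, with PBS in gray and anti–PD-1 in red and the last bar standing for 10 or more. Cells with 10 or more *Ccl12* UMIs go from 3.02% to 12.9%, and those with 10 or more *Ccr2* UMIs go from 4.65% to 1.09%.

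The ligands tended to occur in the same macrophages. Among thinned PBS macrophages with a *Ccl7* UMI, 44.7% also held *Ccl2*, against 6.06% of those without. In the anti–PD-1 library these shares were 47.8% and 16.1%. *Ccl12* was likewise found in 20.2% of PBS macrophages with *Ccl2* and 5.26% of those without, and in 37.9% and 18.0% with anti–PD-1. *Ccl8* stood apart from *Ccl2* with anti–PD-1, where it was found in 6.32% of macrophages with *Ccl2* and 5.89% of those without. No ligand was found in 85.6% of PBS and 60.2% of anti–PD-1 macrophages, and exactly 2 were found in 2.59% and 10.6%. *Ccr2* was detected in macrophages with and without *Ccl2* alike, at 15.8% and 15.7% with PBS and 7.76% and 7.40% with anti–PD-1. It was rarer beside *Ccl8* in the PBS library, at 5.32% (interval 1.75–12.0) of cells with *Ccl8* and 15.9% (14.7–17.2) of those without.

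*Ccr2* had the reverse pattern. In classical monocytes it was at 839 CPM with PBS (2780 UMIs) and 289 CPM with anti–PD-1 (1096 UMIs), 2.91-fold lower (2.71–3.12), with a log2 ratio of −1.52 (−1.62 to −1.42). A log2 ratio of −1 or less was found for 1.76% of the genes measured in classical monocytes. In male-type monocytes the *Ccr2* log2 ratio was −0.98 (−1.22 to −0.74), short of −1. In thinned cells 50.3% of PBS and 19.8% of anti–PD-1 monocytes held a *Ccr2* UMI, beside 1.59% and 0.846% of neutrophils, which are not known to rely on the receptor, at median depths of 6696 and 5471 UMIs for monocytes and 1574 and 2107 for neutrophils. Macrophages held *Ccr2* at 210.2 and 95.5 CPM, with a log2 ratio of −1.10 (−1.17 to −1.02), and a log2 ratio of −1 or less was found for 0.348% of the genes measured there. In male-type macrophages the *Ccr2* log2 ratio was −0.26 (−0.42 to −0.10), and over all macrophages under median-ratio scaling it was −0.95, so neither passed −1. Kupffer cells, which arise largely without CCR2, had 9.17 and 5.29 CPM.

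Among dendritic cells, *Ccr2* was at 406 and 169.7 CPM in cDC1 (log2 ratio −1.24), 281 and 96.3 CPM in cDC2 (−1.50) and 208 and 72.3 CPM in pDC (−1.46). These 3 classes are derived from bone marrow precursors, and a log2 ratio of −1 or less was found for 3.60%, 3.52% and 5.97% of the genes measured in them. Nearly all pDC, 98.7% with PBS and 96.8% with anti–PD-1, also carried markers of another lineage. In cDC1 the thinned value was −1.95 (−3.04 to −0.98), on 46 and 10 UMIs. In cDC2 the thinned value was −0.40, with an interval that included 0 (−1.08 to 0.24), and in male-type cDC2 *Ccr2* was at 102.7 and 86.8 CPM, a log2 ratio of −0.23 (−0.83 to 0.40). Over all cells the ratios were closer to 0 in lymphocytes. Among male-type cells the measured T cell ratio lay further from 0 than that of cDC2. B cells held *Ccr2* at 15.2 and 7.45 CPM (−0.70, interval −1.16 to −0.22). NK cells held *Ccr2* at 215 and 199 CPM, with an interval of the log2 ratio that included 0 (−0.30 to 0.09) and a value of 0.13 under median-ratio scaling. T cells held it at 72.0 and 47.1 CPM (−0.56, interval −0.69 to −0.43), with −0.93 in male-type T cells. Neither NK cells nor T cells passed a log2 ratio of −1, which 2.37% of genes did in NK cells and 0.615% in T cells. Over the 16 classes the interval for *Ccr2* lay below 0 in 10 and above 0 in 0. This count includes mature DC, whose 10 and 1 UMIs were too few to count as measured. The median log2 ratio over all genes was itself below 0 in every class, at −0.24 in neutrophils and −0.13 in T cells. The share of all genes with an interval below 0 was not computed. By level, NK cells (199 CPM) came next after classical monocytes with anti–PD-1, and could not be separated from cDC1 (169.7 CPM) by their intervals.

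The classical monocyte class itself was not alike in the libraries. Of its 6 markers, *Ly6c2*, *Plac8* and *Ms4a4c* were higher with anti–PD-1, with *Ly6c2* at 1728 and 3590 CPM, and *Chil3*, *Vcan* and *F13a1* were lower, with *Chil3* at 6698 and 1214 CPM. UMIs of *Mpo*, *Elane*, *Prtn3* or *Ctsg*, genes of granulocyte and monocyte precursors, were found in 38.0% of PBS and 29.9% of anti–PD-1 cells of the class. Without those cells the *Ccr2* log2 ratio was −1.50, close to the value over all cells of the class. Summed neutrophil markers in this class stood at 2401 and 1793 CPM and Kupffer markers at 83.0 and 266 CPM. Their part in the *Ccr2* difference was not tested further.

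The sex of the cells moved with several values. Within the PBS library, macrophages with Y-linked and no *Xist* UMI differed from those with *Xist* and no Y-linked UMI. *Ccl2* was at 73.2 and 119 CPM in these male-type and female-type PBS macrophages, *Ccl12* at 66.6 and 166 CPM, *Ccl8* at 101 and 55.5 CPM and *Ccr2* at 116 and 223 CPM, while *Ccl7* was at 35.8 and 35.2 CPM. Against the 384 male-type PBS macrophages, the 1101 male-type anti–PD-1 macrophages held *Ccl2* at 370 CPM, *Ccl7* at 231 CPM, *Ccl8* at 191 CPM and *Ccl12* at 769.7 CPM. The intervals of the log2 ratios were 2.09–2.43, 2.30–2.76, 0.73–1.04 and 3.26–3.61, so every ligand kept its direction and *Ccl12* was further apart than over all cells. *Ccr2* in male-type macrophages was at 116 and 95.8 CPM, a difference much smaller than over all macrophages. In classical monocytes *Ccr2* was at 599 and 301 CPM in male-type cells, from 41 and 329 cells. The cells of each sex come from different animals, so sex and animal cannot be told apart.

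**Figure D5:**
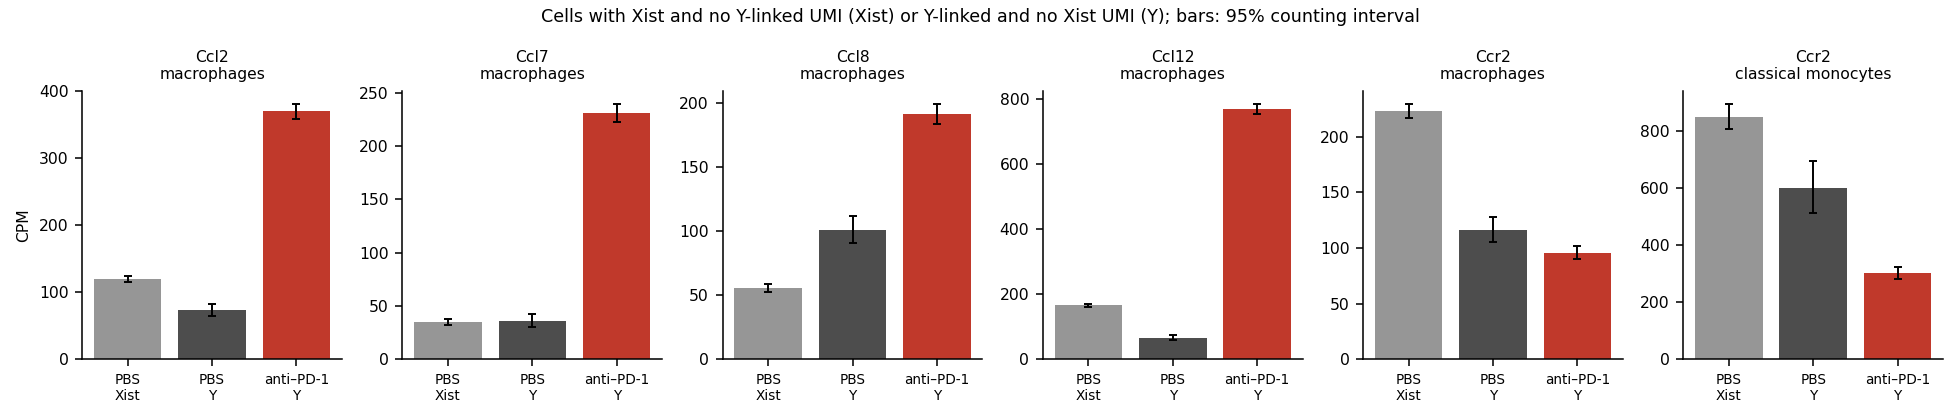
CPM of the 5 genes in macrophages and of *Ccr2* in classical monocytes, in female-type cells of the PBS library, male-type cells of the PBS library and male-type cells of the anti–PD-1 library, each axis starting at 0 and bars showing 95% counting intervals. The ligand bars of the anti–PD-1 library are the highest of the 3 in every panel, and the 2 male-type bars of macrophage *Ccr2* are close, at 116 and 95.8 CPM.

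Among other receptors and decoys of these ligands, *Ccr1*, which binds CCL7 among others, was at 139 and 100.2 CPM in macrophages of the PBS and anti–PD-1 libraries (log2 ratio −0.45, interval −0.53 to −0.37), and at 221 and 223 CPM in classical monocytes, where the interval of the log2 ratio included 0 (−0.13 to 0.15). *Ccr8*, the receptor of mouse CCL8, was near its limit of counting in macrophages, at 10 and 1 UMIs. In T cells it was measured at 11.9 and 9.36 CPM (137 and 157 UMIs), with a log2 ratio of −0.23 (−0.46 to −0.002). *Ackr1* and *Ackr2*, decoy receptors that bind chemokines without G protein signaling, were measured in endothelial cells at 37.8 and 121 CPM and at 84.5 and 39.3 CPM.

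Of the 2 chemokine genes near the ligands on chromosome 11, *Ccl11* was found in CAFs at 28.4 and 386 CPM (log2 ratio 3.55, interval 3.22–3.89). *Ccl1*, the other *Ccr8* ligand, was at 106 and 91.4 CPM in T cells and 5.96 and 69.4 CPM in NK cells. Of 5 proteases that trim or cleave these ligands, 0 of 5 measured in macrophages passed a log2 ratio of 1 or −1, which 2.34% and 0.348% of all genes did there. *Mmp14*, the most abundant of them there, was at 303 and 236 CPM, and *Mmp12*, macrophage elastase, at 85.5 and 121 CPM. Among 8 other attractants and growth factors of monocytes, 7 were measured in macrophages and 1 passed 1, against 2.34% of all genes. It was *Ccl24*, a CCR3 ligand, at 15.7 and 75.6 CPM. *Ccl6* was at 520.4 and 772 CPM, *Mif* at 456 and 589.7 CPM and *Ccl9* at 208 and 198 CPM. In classical monocytes *Ccl9* was lower with anti–PD-1, at 633 and 236 CPM.

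Of 13 genes of cytokines that induce these ligands, their receptors and their signaling, among them transcription factors and an NF-κB inhibitor, 8 passed a log2 ratio of 1 in macrophages and 5 did not, where 2.34% of all genes passed. In classical monocytes 8 of 12 measured passed, where 3.85% of all genes did, and in Kupffer cells 9 of 13, where 1.50% did. None of them passed −1 in these classes, where 0.348%, 1.76% and 0.276% of all genes did. The median log2 ratio of the list was 1.55, 1.25 and 1.27 in that order, beside −0.10 over all genes in each class. In macrophages *Il1b*, an inducer of *Ccl2*, was at 100.3 and 789 CPM (2.91, interval 2.86–2.97), *Nfkbiz*, an NF-κB cofactor, at 91.2 and 549 CPM, *Nfkbia*, the NF-κB inhibitor induced by NF-κB itself, at 454 and 1574 CPM and *Cebpb* at 527 and 1555 CPM. In classical monocytes *Il1b* was at 119 and 964 CPM. Of 9 monocyte receptors and factors, 2 of 9 passed a log2 ratio of 1 and 1 of 9 passed −1 in macrophages, against 2.34% and 0.348% of all genes. The latter was *Cx3cr1*, the fractalkine receptor of mature monocytes, at 494 and 228 CPM. In classical monocytes 0 of 9 passed 1 and 2 of 9 passed −1, against 3.85% and 1.76% of all genes, among them *Itgam*, encoding CD11b, at 411 and 156 CPM, while *Csf1r*, the M-CSF receptor, was at 622 and 319 CPM.

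Early response genes that tissue digestion can induce also differed between the libraries. Of 14 such genes, 11 passed a log2 ratio of 1 in macrophages (2.34% of all genes), 8 in classical monocytes (3.85%), 10 in Kupffer cells (1.50%), 13 in CAFs (3.27%) and 2 in neutrophils (2.47%), where 2 others passed −1 (3.93%). Their medians were 1.55, 1.09, 1.19, 2.17 and 0.19 in that order. *Dusp1* was at 480.1 and 2163 CPM in macrophages and *Fos* at 852 and 2101 CPM. In classical monocytes *Dusp1* was at 442 and 1390 CPM. Their part in the ligand differences was not tested.

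Summed markers of the macrophage class were 20409 and 19217 CPM in the PBS and anti–PD-1 libraries, and of its 8 markers 2 were higher with anti–PD-1. Neutrophil markers summed to 488 and 1063 CPM in macrophages, with 6 of 7 higher and 0 at zero, and Kupffer markers to 993 and 1663 CPM, with 5 of 6 higher. In the Kupffer class neutrophil markers summed to 314 and 831 CPM, with 7 of 7 higher. Classical monocyte markers summed to 310 and 602 CPM there, with 3 of 6 higher. Without the cells that also carried markers of another lineage, the macrophage log2 ratios were 1.67 for *Ccl2*, 2.40 for *Ccl7*, 2.00 for *Ccl8* and 2.53 for *Ccl12*. This filter counted Kupffer cells and monocytes as the same lineage as macrophages. It therefore left in macrophages with Kupffer or monocyte markers and cannot address the difference in Kupffer markers.

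Across 24 sums, 1 for each library and each of 12 classes with at least 100 cells in both, *Ccl8* was most like *Ccl12* among 12050 genes compared (Pearson r = 0.92 of log2(CPM + 5)), followed by *Alox15*, a lipoxygenase gene (0.86), and the collagenase gene *Mmp13* (0.80). *Ccl12* had the same neighbours, with *Ccl8* at 0.92, *Mmp13* at 0.87 and *Alox15* at 0.85. *Ccl2* was most like *Cfb*, complement factor B (0.88), *Ccl7* (0.86) and *Oas1g* (0.80), and *Ccl7* was most like *G530011O06Rik* (0.88), *Ccl2* (0.86) and the cytokine gene *Il6* (0.84). *Ccr2* had other neighbours, namely *BC147527* (0.85), *Rbpj*, the nuclear effector of Notch (0.84), and *Gyg*, glycogenin (0.83), and its correlation with the 4 ligands lay between −0.03 and −0.02. These points share their libraries and sequencing depth, and the correlations are a description only.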

How the data were processed

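The 2 scRNA-Seq libraries (GEXSCOPE V2 kit, tumor-bearing livers at day 33) were deposited as matrices of raw UMI counts per gene and cell. Per the methods, the authors made these counts with Singleron's pipeline against mm10, and the submitters' processing notes name Seurat 4.3. The pipeline's version, its annotation and the use of strand are not given in the sources used here. Totals were 121713441 and 100807037 UMIs in 19397 and 19451 barcodes.

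A cell was kept when it had from 500 to 5000 genes with a UMI and when mitochondrial genes took no more than 10% of its UMIs. Each cell went to the class with the highest mean scaled marker level, with at least 2 detected markers and a score of at least 0.15. No clustering and no doublet caller were used, and cells with markers of a further lineage were left out in an alternative. Counts were summed per class and library and divided by the class total (CPM). Log2 ratios were taken after adding 5 CPM. Intervals are exact at 95% (Poisson for CPM, Clopper-Pearson for shares, conditional binomial for ratios) and cover counting error only. With 1 library per group no test was made. A count of 0 was read as allowing up to 3 UMIs. A gene with at least 20 UMIs over both libraries counted as measured in a class, and a log2 ratio of 1 or −1 as past the fold. For shares of cells, each cell was thinned to 1000 UMIs.

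The 5 genes, the classes' markers and the gene lists were chosen with earlier results of these data known. From a list the text names at most 4 genes, those with the most UMIs in the class, and for each of the 5 genes the 3 genes most like it, among genes with at least 500 UMIs. The TATAAA search was added after the promoters were read. Analysis used Python 3.11.15, numpy 2.4.6, pandas 2.3.3 and scipy 1.17.1. The ratios and intervals were tested on simulated Poisson counts only. Such counts do not mimic UMIs concentrated in few cells, so the intervals were not tested for that. The 11 alternatives included other cell filters and gates, thinning, scaling, pseudocount and restriction to Y-linked cells. They also included removal, for each gene, of the 1% of cells with the most UMIs of that gene. Removal of cells with precursor genes, the last of them, was chosen after seeing the data. Values of some listed genes are not reported here.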

Additional observations from a re-analysis of the deposited data

How the results depend on the processing

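Each value has 1 library per group, so its interval covers counting error only, and treatment cannot be told apart from animal, sex mix, digestion or library. Depth limits *Ccl8* and *Ccl12* in classical monocytes, the ligands in rare dendritic cells and *Ccr2* in mature DC. No paired analysis was possible because there is 1 library per group. No ligand ratio in macrophages and no *Ccr2* ratio in classical monocytes changed direction under the 11 alternatives, and 30 of 55 of these values moved by less than their counting interval. The cause of the other movements was not tested. Restricting to male-type cells (Y-linked UMIs without *Xist*) gave log2 ratios of 2.26 for *Ccl2*, 0.89 for *Ccl8* and 3.44 for *Ccl12* in macrophages and −0.98 for *Ccr2* in classical monocytes. Median-ratio scaling, which shifted the scale of the libraries by 0.15 in macrophages and 0.19 in classical monocytes before the pseudocount, gave 1.80 (*Ccl2*), 2.62 (*Ccl7*), 2.16 (*Ccl8*), 2.60 (*Ccl12*) and −1.33 (*Ccr2*). Leaving out, for each gene, the 1% of cells with the most UMIs of that gene gave 1.82 (*Ccl2*), 2.91 (*Ccl7*), 1.89 (*Ccl8*) and 2.72 (*Ccl12*). With no upper limit on detected genes the ratios were 2.37 (*Ccl7*), 2.11 (*Ccl8*), 2.38 (*Ccl12*) and −1.66 (*Ccr2*). Without cells with *Mpo*, *Elane*, *Prtn3* or *Ctsg* UMIs, an alternative chosen after seeing the data, they were 2.58 (*Ccl7*), 2.21 (*Ccl8*) and 2.55 (*Ccl12*). Thinning gave 1.87 for *Ccl8* and −1.78 for *Ccr2*, a pseudocount of 1 CPM gave 2.59 for *Ccl7*, leaving out cells with markers of another lineage gave 2.53 for *Ccl12*, and asking for 3 detected markers gave −1.38 for *Ccr2*. Of 176 values for the other gene and class pairs, 132 moved by less than their interval, 42 by more, and 2 turned in direction from a value whose interval left out 0, both *Ccl2* in classical monocytes, at −0.044 with no upper limit on detected genes and −0.65 without cells with precursor genes. Of values whose interval held 0, *Ccl7* in classical monocytes went from −0.22 to 0.79 when thinned and 2.01 in male-type cells (0 UMIs with PBS). It was 0.61 without the 1% of cells with the most *Ccl7* UMIs. *Ccr2* in NK cells, whose interval also held 0, went from −0.10 to 0.13 under median-ratio scaling. Counting every gene with a UMI moved the share of genes past the fold by over 1.5 times in 9 of 16 comparisons, to 2.35% (higher) and 1.08% (lower) in classical monocytes, 0.962% (higher) and 0.177% (lower) in Kupffer cells, 1.50% (higher) and 2.40% (lower) in neutrophils, 1.03% in B cells, 2.30% in cDC2 and 0.404% in T cells.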
